A study of Homo sapiens with 4 samples.

Results

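The caspases examined here were CASP1, CASP2, CASP4, CASP6, CASP8, CASP9 and CASP10, 7 of the 20045 genes that the platform annotation names on an Illumina bead array, held by 20 of its 47318 probes. All probes of these genes were taken, whatever their signal. The arrays were hybridised with RNA of U87, an established human glioblastoma cell line grown in medium with serum. One group, here piR-598 mimic, had received a synthetic mimic of the PIWI-interacting RNA piR-598, and the other, here NC oligo, had received the miScript Inhibitor Negative Control. Both were transfected with RNAiMax to 25 nM and collected at 24 h, with 2 arrays per group that the submitters call biological duplicates. No untransfected or mock-transfected cells were analysed here, and since the labels name no separate passages for the duplicates, the p-values reflect only how far these 4 samples spread, which may be technical.

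Caspases are cysteine proteases that are made as inactive zymogens and cut their substrates after aspartate. Caspase-8 and caspase-10 are initiators recruited to death receptors, caspase-9 is the initiator activated on the APAF1 apoptosome, and caspase-2 can be activated by the PIDDosome. Caspase-6 is an executioner that cuts nuclear lamins, whereas caspase-1 and caspase-4 are inflammatory caspases that act on gasdermin D. Because caspases are held as zymogens, their activity is controlled largely after translation, and an mRNA level is not a measure of protease activity.

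The array means of the deposited signal ran from 273.0 to 284.8 with the mimic and from 300.0 to 305.8 with the NC oligo, and 19627 to 20324 probes per array had a detection p under 0.05. Precision is limited throughout by the number of arrays. Among defining markers, VIM, CD44, NES and SPARC of mesenchymal glioma lines were detected on all 4 arrays, whereas the astrocyte markers GFAP, AQP4, S100B and ALDH1L1 were detected on 0 of 4. Of 6 leukocyte markers with a probe, CD14 and AIF1 were detected on all 4 arrays and PTPRC, CD3E, ITGAM and LYZ on 0. The neuron marker SNAP25 was detected on all 4 arrays, and RBFOX3 and SYT1 on 0. Among endothelial and epithelial markers, EPCAM was detected on 3 arrays and PECAM1 on 1, whereas VWF, CDH5, CDH1 and KRT5 were detected on 0. On the authors' scaled signals, the summed level of the 4 glioma-line markers ran from 22408 to 23414 with the mimic and from 23758 to 24543 with the NC oligo. Both mimic arrays were the lower in that sum. CD44 and SPARC were lower on both mimic arrays, whereas VIM and NES overlapped between the groups, and VIM was highest on mimic array 2. The summed astrocyte, leukocyte and endothelial markers, mostly undetected, were higher on both mimic arrays. The neuron sum was lower on both, and the epithelial sums overlapped. Among all tested single probes, on normalized signals, the groups did not overlap for 34.7%. The 2 detected leukocyte markers were near background, with CD14 at 112 and 118 with the mimic and 111 and 111 with the NC oligo. SNAP25 was not near background, at 358 and 422 with the mimic and 435 and 444 with the NC oligo.

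The members differ in the sequence just before their transcription starts, which is shown for a member with 2 probes detected on every array (CASP2), an inflammatory member with 1 such probe (CASP4) and the member without any tested probe (CASP8). RefSeq promoters on GRCh38.p14 were held for 5 of the 7 genes, at 9 start sites. The 250 bases before the start are printed 5′ to 3′ on the gene's strand, with each CG dinucleotide in capitals. They lie at chr7:143288101-143288350 on the plus strand for the first of 2 CASP2 starts, chr11:104968575-104968824 on the minus strand for CASP4 and chr2:201233213-201233462 on the plus strand for the first of 3 CASP8 starts.
CASP2: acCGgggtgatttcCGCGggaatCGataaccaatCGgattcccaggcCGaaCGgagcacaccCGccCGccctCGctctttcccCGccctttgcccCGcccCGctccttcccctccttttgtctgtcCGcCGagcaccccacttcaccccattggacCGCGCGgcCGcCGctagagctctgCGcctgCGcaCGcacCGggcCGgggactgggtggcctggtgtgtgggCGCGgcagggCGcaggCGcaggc
CASP4: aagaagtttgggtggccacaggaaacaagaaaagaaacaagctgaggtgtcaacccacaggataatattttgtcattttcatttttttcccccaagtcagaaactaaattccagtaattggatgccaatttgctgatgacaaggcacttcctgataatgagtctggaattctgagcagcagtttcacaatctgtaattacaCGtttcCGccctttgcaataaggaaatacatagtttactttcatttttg
CASP8: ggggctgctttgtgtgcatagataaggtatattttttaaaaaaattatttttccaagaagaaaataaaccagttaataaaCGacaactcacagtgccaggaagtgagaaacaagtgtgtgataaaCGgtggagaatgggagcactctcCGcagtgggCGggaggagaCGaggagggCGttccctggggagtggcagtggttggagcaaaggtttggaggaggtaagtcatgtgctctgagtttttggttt
The CASP2 window printed held 29 CG dinucleotides, a number that 14.1% of 35116 promoter windows of the same length reached. The window of the second CASP2 start, at chr7:143289338-143289587, held 2, reached by 85.3%, so the CASP2 starts differ in this count. The CASP4 window held 2 as well, and the printed CASP8 window held 6, reached by 61.9%, with 5 at each of its other starts. The CASP6 window held 26, and the windows of the 2 CASP9 starts held 29 and 25. The GC box GGGCGG, which itself contains a CG, was found on either strand in 6 of the 9 windows, against 42.6% of all windows. The letters TTCNNNGAA, the same on both strands and the core of a STAT site, were found in 1 of the 9, the CASP8 window printed above, against 6.57% of all windows. These matches are a description of letters only.

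Detection came first in the comparison, because a probe at the level of the negative controls gives no fold change. Of the 20 caspase probes, 9 were detected on all 4 arrays, 4 on some arrays and 7 on none. To be tested, a probe had to be detected (detection p under 0.05) on 2 or more of the 4 arrays, which 11 caspase probes met, or 55%, against 42.7% of all probes. They covered 6 of the 7 genes: CASP1 with 2 tested probes, CASP2 with 2, CASP4 with 1, CASP6 with 3, CASP9 with 2 and CASP10 with 1. CASP8, the initiator of the death receptor route, had none.

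**Figure D1:**
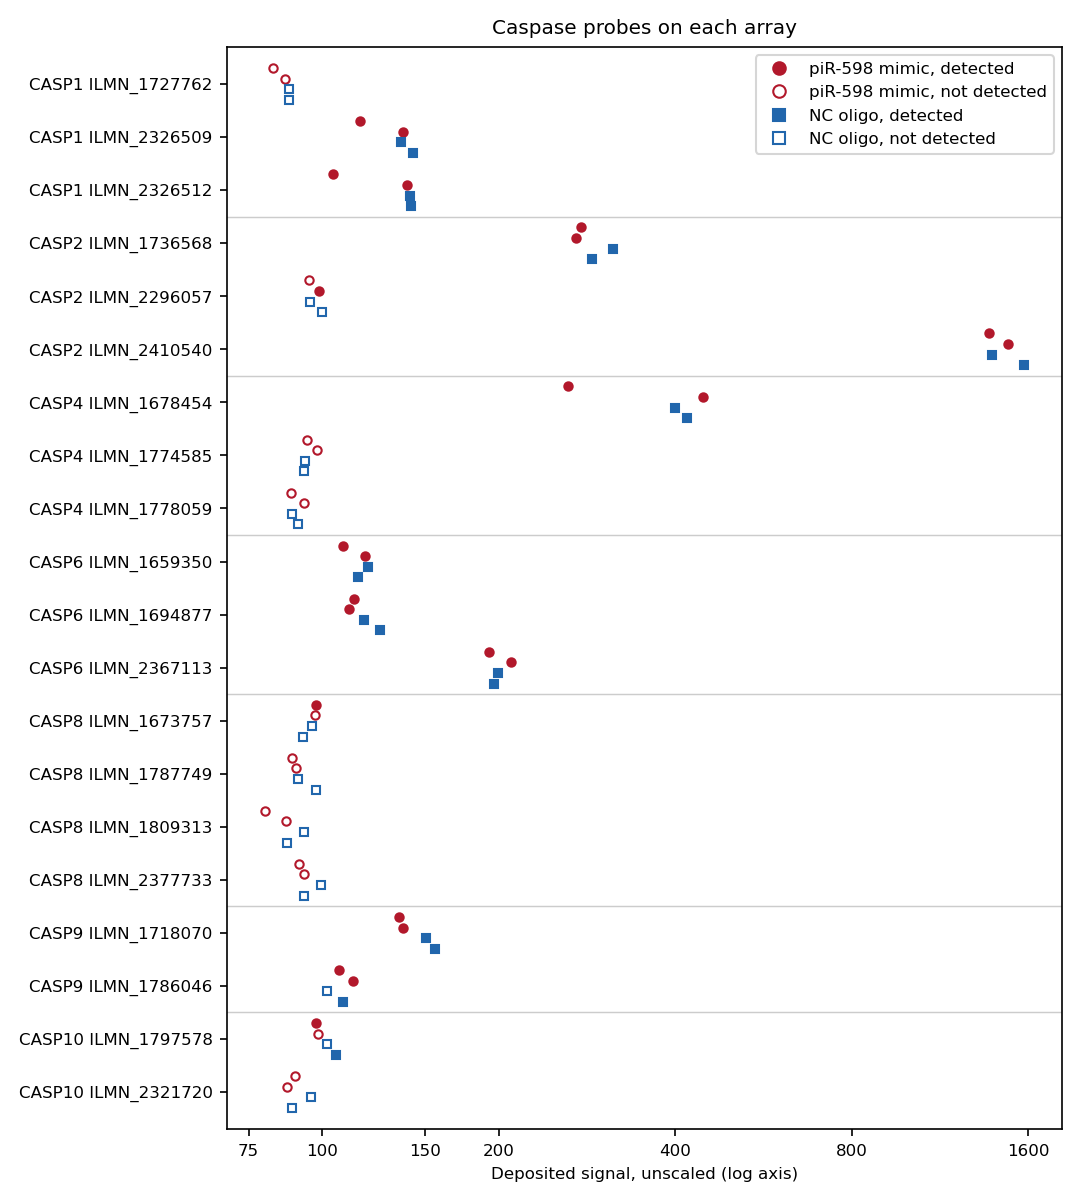
Deposited signal of the 20 caspase probes on each array (log axis, no scaling between arrays), with piR-598 mimic arrays 1 and 2 as circles above NC oligo arrays 1 and 2 as squares in each row, filled where the detection p was under 0.05. All 4 CASP8 probes sit at the background, with 1 filled symbol among them, while 9 probes are filled on all 4 arrays; brightness differs between probes for reasons of design and is not compared between them.

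No caspase transcript passed the test for a difference between mimic and NC oligo. Of the 11 tested caspase probes, 0 were called in limma at 0.05 after Benjamini-Hochberg adjustment, against 0% of all 20188 tested probes. The lowest adjusted p from limma among caspase probes was 0.895. Before adjustment, p was under 0.05 for 1 caspase probe, against 5.46% of all tested probes. The log2 fold change, mimic minus NC oligo, was positive for 5 caspase probes and negative for 6, where 50.2% of all tested probes were positive. Its median was -0.03 over the 11 caspase probes and 0.0007 over all tested probes. The caspase median took either sign with 1 array left out, from -0.11 without NC oligo replicate 1 to 0.10 without mimic replicate 1, and it was -0.11 under median scaling, where that of all tested probes was -0.09. The mimic and NC oligo arrays did not overlap for 3 of the 11 probes, against 34.7% of all tested probes, so that count lies near the background. An exact permutation test of 2 arrays against 2 cannot go below p = 0.333, which it reached for those 3 probes, of CASP6 and CASP9.

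The death receptor initiators were at or below the detection limit. The CASP8 probe ILMN_1673757 had deposited signals of 97.7 and 97.2 on mimic arrays 1 and 2, with detection p of 0.0234 and 0.0948. On NC oligo arrays 1 and 2 it had 96.2 and 92.8, with detection p of 0.308 and 0.614. It was thus detected on 1 array, that of mimic 1. The other 3 CASP8 probes were detected on 0 of the 4 arrays, with signals from 80.0 to 93.1 with the mimic and from 87.3 to 99.8 with the NC oligo. Their detection p ran from 0.270 to 0.994 with the mimic and from 0.114 to 0.956 with the NC oligo. CASP8 mRNA was not detectable above background on most arrays with these probes, which sets no fold change and does not show that it is absent.

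CASP10, which lies beside CASP8 on chromosome 2 and encodes its closest relative, was near the limit too. Its probe ILMN_1797578 had normalized log2 signals of 4.66 and 4.59 with the mimic and 4.57 and 4.73 with the NC oligo. The 4 values interleave, and each group had 1 detected and 1 undetected array. Between the groups it differed by a log2 fold change of -0.03 ± 0.15 (SE; 95% interval -0.36 to 0.30; limma adjusted p = 0.994), and with single arrays left out it ran from -0.11 without NC oligo replicate 1 to 0.05 without NC oligo replicate 2. The second CASP10 probe, ILMN_2321720, was detected on 0 of the 4 arrays, with detection p of 0.405 and 0.835 with the mimic and 0.334 and 0.899 with the NC oligo.

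CASP9, the mitochondrial route's initiator, had 2 tested probes whose values differed in opposite directions. Probe ILMN_1786046 had normalized log2 signals of 5.15 and 5.24 with the mimic, against 4.57 and 4.88 with the NC oligo. Both mimic arrays lay above both NC oligo arrays, and NC oligo array 1 missed the detection threshold at 0.0506. Its log2 fold change was 0.47 ± 0.16 (SE; 95% interval 0.11 to 0.83), a ratio of 1.38, with an unadjusted limma p of 0.0172 and an adjusted p of 0.895. This was the caspase probe with the smallest unadjusted p, at rank 313 of 20188. Its log2 fold change shrank to 0.14 without background correction, 0.22 with an offset of 50 and 0.18 on the authors' scaled signals. Without NC oligo replicate 1, the array on which it was undetected, it was 0.31.

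The other CASP9 probe did not share that difference. ILMN_1718070, detected on all 4 arrays, had 6.08 and 5.97 with the mimic, against 6.09 and 6.23 with the NC oligo. Both mimic arrays lay below both NC oligo arrays, though mimic array 1 and NC oligo array 1 were close. It had a log2 fold change of -0.13 ± 0.15 (SE; 95% interval -0.47 to 0.20; limma adjusted p = 0.966), from -0.05 on the authors' scaled signals to -0.22 under median scaling. The platform annotation assigns these probes to different RefSeq transcripts of CASP9. The disagreement was then measured within arrays, a comparison chosen after the values were seen. The log2 signal of ILMN_1718070 minus that of ILMN_1786046 was 0.93 and 0.73 with the mimic, against 1.52 and 1.34 with the NC oligo, a difference of -0.60. Because both probes had already been seen to separate the groups in opposite directions, this difference is a description with no test, and it includes NC oligo array 1, where ILMN_1786046 was undetected. It was not particular to CASP9 among the 6 pairs of tested probes within a caspase. The groups were also apart for CASP6 ILMN_1659350 minus ILMN_2367113 (-0.16) and ILMN_1694877 minus ILMN_2367113 (-0.33). They overlapped for the CASP1, CASP2 and remaining CASP6 pairs.

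CASP2, the initiator tied to the PIDDosome, had 2 probes detected on all 4 arrays and overlapping groups on both. ILMN_2410540 had normalized log2 signals of 10.47 and 10.49 with the mimic, against 10.25 and 10.48 with the NC oligo. NC oligo array 1 stood below the other 3 arrays, which were nearly equal. The log2 fold change was 0.12 ± 0.15 (SE; 95% interval -0.23 to 0.46; limma adjusted p = 0.972), and it was -8.5e-04 without NC oligo replicate 1. ILMN_1736568 had 7.84 and 7.63 with the mimic, against 7.77 and 7.64 with the NC oligo, so that in each group array 1 was the higher. Its log2 fold change was 0.03 ± 0.15 (SE; limma adjusted p = 0.994), from -0.07 without mimic replicate 1 to 0.13 without mimic replicate 2. The third CASP2 probe, ILMN_2296057, was detected on mimic array 2 alone, with a detection p of 0.0481, and was not tested.

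CASP6, the executioner that cuts lamins, had 1 of 3 tested probes on which the groups separated and the duplicates nearly coincided. ILMN_2367113 had normalized log2 signals of 7.06 and 7.08 with the mimic, against 6.82 and 6.82 with the NC oligo. On these normalized signals the arrays of each group nearly coincided, with a gap of 0.03 between the mimic arrays and 0.0002 between the NC oligo arrays. Gaps at least that wide were found at 92.5% of tested probes for the mimic and 99.8% for the NC oligo. Its log2 fold change was 0.25 ± 0.14 (SE; 95% interval -0.07 to 0.56; limma adjusted p = 0.913), and it stayed between 0.23 and 0.26 when any 1 array was left out. It was smaller under other processing, at 0.14 on the authors' scaled signals and 0.13 when arrays were median-scaled. The authors' scaled signals were 205.0 and 214.2 with the mimic, against 189.5 and 190.9 with the NC oligo. The deposited signals, not scaled between arrays, overlapped, at 192.4 and 209.7 with the mimic against 199.2 and 196.8 with the NC oligo. The SE and interval are moderated by limma toward the spread of all tested probes, so the small duplicate gaps alone do not set them.

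The remaining CASP6 probes had overlapping groups. ILMN_1659350 had 5.23 and 5.42 with the mimic, against 5.32 and 5.17 with the NC oligo. Its log2 fold change was 0.08 ± 0.15 (SE), and it was -0.02 without mimic replicate 2. ILMN_1694877 had 5.44 and 5.17 with the mimic, against 5.26 and 5.52 with the NC oligo. Its log2 fold change was -0.08 ± 0.17 (SE), from -0.22 without mimic replicate 1 to 0.06 without mimic replicate 2. Neither probe passed the test (limma adjusted p = 0.985 and 0.986). Mean log2 changes of 0.25, 0.08 and -0.08 were thus read from 3 probes of the same gene. The platform annotation assigns ILMN_2367113 to a different RefSeq transcript from ILMN_1659350 and ILMN_1694877, which share one.

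**Figure D2:**
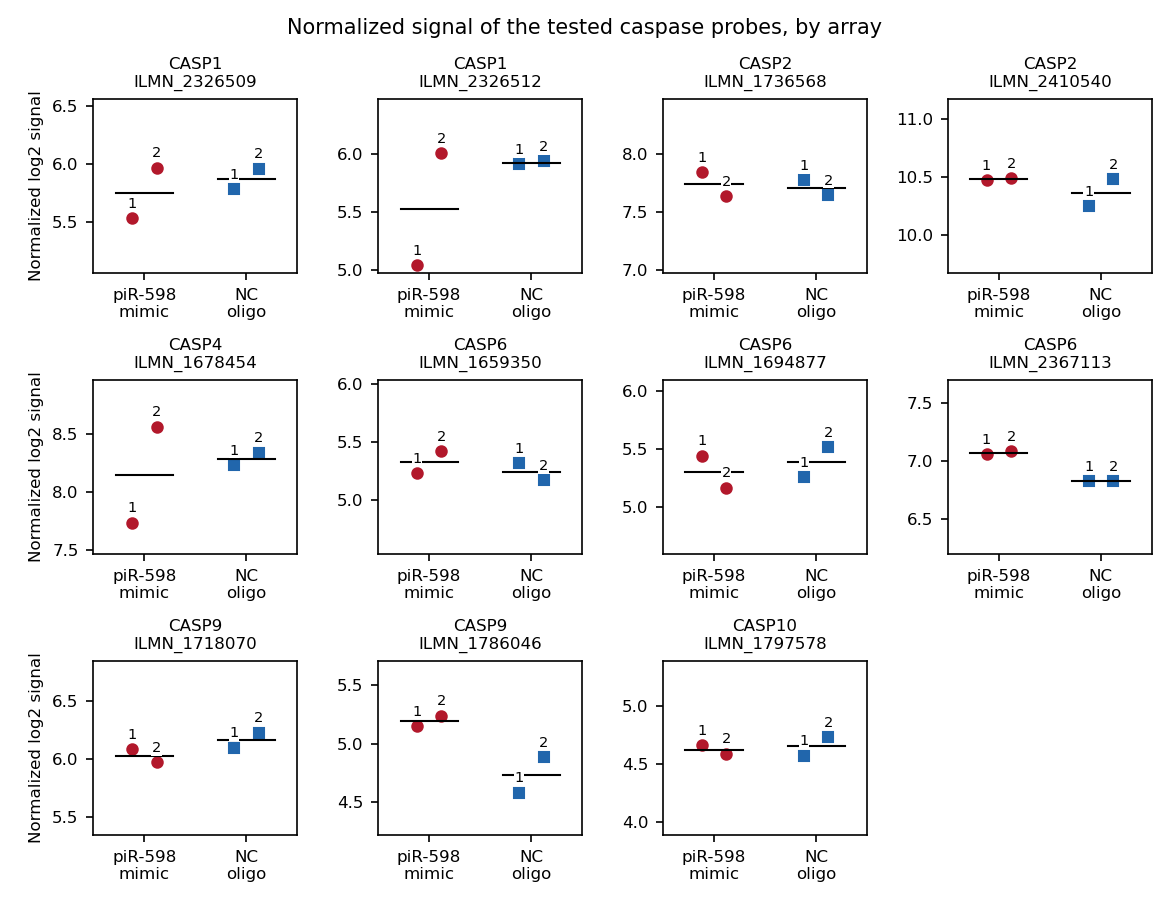
Normalized log2 signal of the 11 tested caspase probes, 1 panel per probe, with piR-598 mimic arrays (circles) left of NC oligo arrays (squares), numbers for replicates and bars for group means; all panels span the same log2 range. Mimic array 1 sits apart and low for ILMN_2326512 of CASP1 and for CASP4, while the groups separate in opposite directions on the 2 CASP9 probes.

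The inflammatory caspases CASP1 and CASP4 lie in the same gene cluster on chromosome 11. Mimic array 1 was the lowest of the 4 arrays on all 3 of their tested probes. The CASP1 probes among them are annotated to the same transcript. How often mimic array 1 was lowest over all tested probes was not computed. That order was not particular to these genes, as the brightest probes of BIRC2 and BIRC6 had it too, though that of ENDOG did not. CASP4 probe ILMN_1678454 had normalized log2 signals of 7.73 and 8.56 on mimic arrays 1 and 2, against 8.23 and 8.34 with the NC oligo. The NC oligo arrays lay between the 2 mimic arrays. The gap of 0.83 between the mimic arrays was reached by 0.976% of all tested probes, where the median gap was 0.18. The median gap between the NC oligo arrays was smaller, at 0.14. CASP4 had a log2 fold change of -0.14 ± 0.24 (SE; 95% interval -0.69 to 0.42; limma adjusted p = 0.985). It was 0.28 without mimic replicate 1 and -0.55 without mimic replicate 2, so its direction rested on which mimic array was kept.

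CASP1, the protease that matures interleukin-1 beta, showed the same arrangement. ILMN_2326512 had 5.04 and 6.01 on mimic arrays 1 and 2, against 5.91 and 5.94 with the NC oligo. Its mimic gap of 0.96 was reached by 0.282% of tested probes. The log2 fold change was -0.40 ± 0.27 (SE; 95% interval -1.01 to 0.22; limma adjusted p = 0.935), and it was 0.08 without mimic replicate 1 and -0.88 without mimic replicate 2. With no background correction it was -0.14, and on the authors' scaled signals -0.11. The low value on mimic array 1 lay near background, at a deposited signal of 104.6 with a detection p of 0.0026. ILMN_2326509 had 5.53 and 5.97 with the mimic, against 5.78 and 5.96 with the NC oligo. Again mimic array 1 was the low one, with a gap of 0.44 that was reached by 12.6% of tested probes. The log2 fold change was -0.12 ± 0.18 (SE; limma adjusted p = 0.975), and it was 0.10 without mimic replicate 1 and -0.34 without mimic replicate 2.

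Some probes of these genes gave no level. The third CASP1 probe, ILMN_1727762, was detected on 0 of 4 arrays, as were CASP4 probes ILMN_1774585 and ILMN_1778059. CASP1 has near-identical neighbours, CARD16 and the pseudogene CARD17P, and which copy a CASP1 probe reads is uncertain here. The 3 probes named for CARD16 and the 2 named for CARD17 were detected on 0 arrays.

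**Figure D3:**
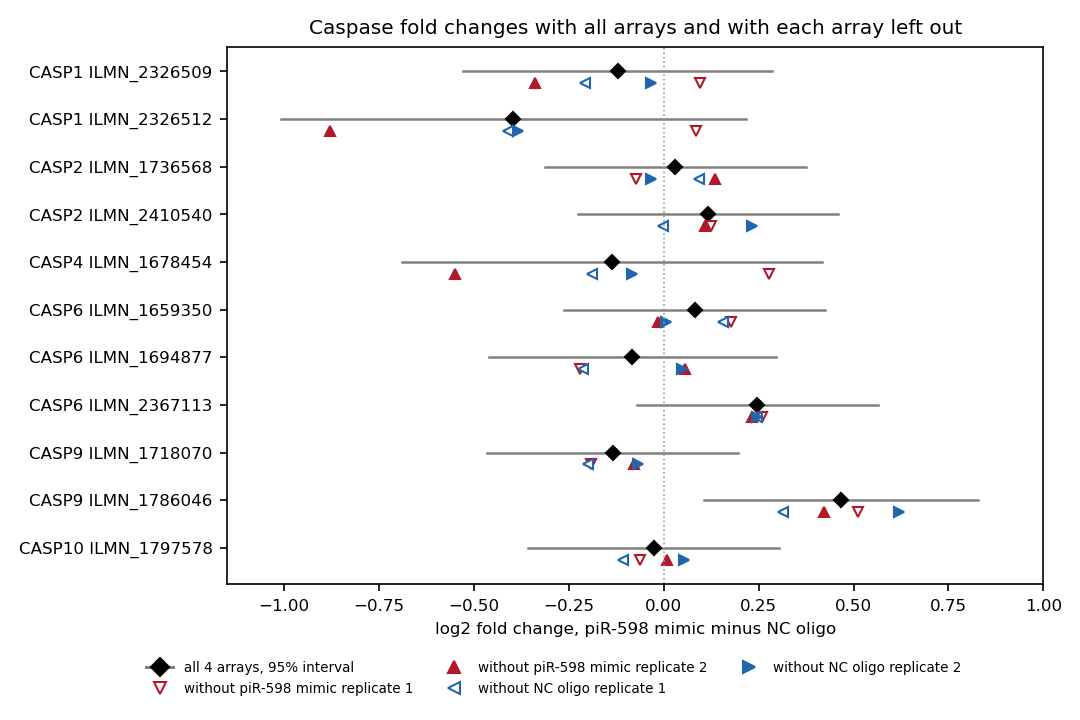
log2 fold change, piR-598 mimic minus NC oligo, of each tested caspase probe with all 4 arrays (diamond, with its 95% interval) and with each array left out in turn (triangles). For CASP1 and CASP4 the open and filled mimic triangles fall on opposite sides of 0, whereas for ILMN_2367113 of CASP6 all 4 lie between 0.23 and 0.26; 8 of the 11 probes turned sign in at least 1 of the 4 fits.

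Genes whose signal across the 4 arrays lay nearest to each caspase were found by Euclidean distance over the normalized log2 signals, using the brightest tested probe of each caspase. The distance covers level and array-to-array pattern together. For CASP4 the nearest were RO60 at 0.132 and BTAF1 at 0.169, and both were also lowest on mimic array 1 and highest on mimic array 2. For CASP1 they were VPS54 at 0.0805 and PTPN4 at 0.113, for CASP2 NAP1L4 at 0.0776 and MOK at 0.0961, and for CASP6 LYRM4 at 0.0828 and MKKS at 0.0934. For CASP9 they were C3 at 0.0768 and ZNF598 at 0.0825, and for CASP10 OSM at 0.0418 and FCRL2 at 0.0545. With 4 arrays many genes lie near any pattern, so these names describe likeness only.

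Genes of the pathways around these caspases did not pass the test either. Of 50 such genes with a named probe, in 7 lists, 38 had a tested one, and 0 were called higher and 0 lower (limma, lowest adjusted p = 0.895). Each gene was represented by its brightest tested probe in these counts. Before adjustment, the limma p on that probe was under 0.05 for 1 gene of the 38, ENDOG, against the same 5.46% of all tested probes. Their median log2 fold change was 0.02, with 21 positive and 17 negative. CASP5 and CASP14 were detected on 0 arrays.

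In the list of the apoptosome and mitochondrial release, 6 of 6 genes were tested, 2 positive and 4 negative, with a median log2 fold change of -0.08. That direction rested on mimic array 2: without it, 5 of the 6 were positive and the median was 0.06. ENDOG, a mitochondrial nuclease released in apoptosis, had normalized log2 signals of 8.44 and 8.22 with the mimic, against 8.03 and 7.94 with the NC oligo. Its groups did not overlap, and the log2 fold change was 0.35 ± 0.15 (SE; limma unadjusted p = 0.0466, adjusted p = 0.895). APAF1, the scaffold of the apoptosome, had a log2 fold change of -0.14, or -0.04 without NC oligo replicate 1. The flavoprotein AIFM1 had -0.12 on its brightest probe and 0.1 on its other. The brightest probe had 0.03 without mimic replicate 2.

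Around CASP8 and CASP10, 8 of 10 genes of the death receptor complex were tested, 5 positive and 3 negative, with a median of 0.05 that turned to -0.02 without mimic replicate 1. TNFRSF10B, a TRAIL receptor, had a log2 fold change of -0.29 on its brightest probe, with its other 2 probes at 0.02 and 0.21. The death receptor FAS had -0.18 and DEDD2, which carries a death effector domain, had 0.13. FAS turned to 0.09 without NC oligo replicate 2 and DEDD2 to -0.03 without NC oligo replicate 1. CRADD and PIDD1, the adaptor and scaffold that activate CASP2, had -0.12 and -0.01, and PIDD1 turned to 0.04 without mimic replicate 2 and to 0.06 without NC oligo replicate 2.

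Around CASP1 and CASP4, 7 of 13 inflammasome genes were tested, and all 7 had a positive log2 fold change with all 4 arrays, with a median of 0.17. No gene of the 7 passed, the lowest limma adjusted p being 0.919, and the groups did not overlap for 3 of them, against 34.7% of all tested probes. IL1B, the cytokine that caspase-1 matures, had 0.23 ± 0.14 (SE), the adaptor PYCARD had 0.20 ± 0.15 (SE) and IL18 had 0.16 ± 0.14 (SE). The number positive was 6 of 7 when arrays were median-scaled and 6 of 7 with the scaled table of the authors, and 5 of 7 without NC oligo replicate 1. The sensors NLRC4, NLRP1 and MEFV were not tested.

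Of the inhibitors of apoptosis, 4 of 7 were tested, 2 positive and 2 negative. BIRC2 had a log2 fold change of -0.35 ± 0.20 (SE) on 1 probe and 0.12 on its other, and it was -0.07 without mimic replicate 1. BIRC6 had -0.23, or 0.10 without mimic replicate 1. XIAP, an inhibitor of caspase-9, had 0.15, or 0.0070 without NC oligo replicate 2. BIRC5 had 0.05 on its brightest probe and 0.40 on its other, above the highest brightest-probe value of all lists, 0.35. Among caspase substrates 11 of 12 were tested, 5 positive and 6 negative, with a median of -0.03. The DNA repair enzyme PARP1 had a log2 fold change of -0.20, the pore-forming GSDME 0.14 and the scramblase XKR8 -0.13. No gene of either list passed the test, with limma adjusted p-values of 0.913 and above on the brightest probes.

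**Figure D4:**
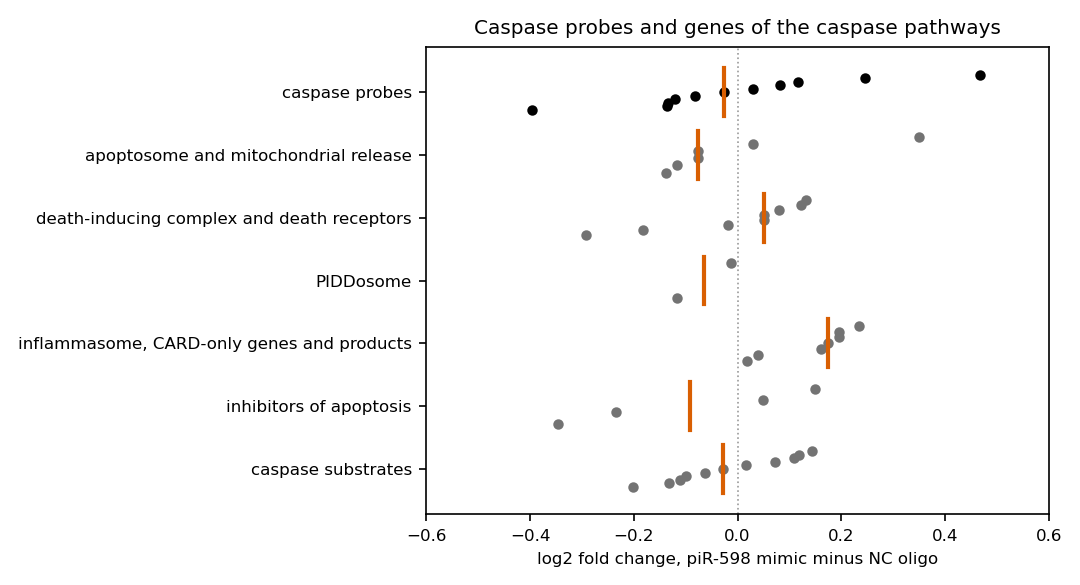
log2 fold change, piR-598 mimic minus NC oligo, of the 11 tested caspase probes (black) and of the tested genes of 6 lists around them (grey, 1 point per gene, its brightest tested probe), with the median of each row as an orange bar. Points lie on both sides of 0 in every row but those of the 2 PIDDosome genes, both negative, and the 7 inflammasome genes, all positive.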

How the data were processed

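RNA of 4 U87 cultures was measured on Illumina bead arrays, 2 per group, with groups and replicate numbers taken from the sample titles. The authors deposited unscaled average signal intensities with a detection p-value for each, per the file headers, and a second table of intensities scaled to equal array means, used as an alternative. GenomeStudio 2011.1 was used, per the submitters' processing notes, and the background handling is not given in the sources used here.

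From the unscaled intensities, limma 3.58.1 in R 4.3.3 corrected the background by normexp with the detection p (offset 16), quantile normalized and took log2. Probes detected (p under 0.05) on 2 or more of the 4 arrays were tested with lmFit and eBayes, two-sided, with Benjamini-Hochberg adjustment over 20188 probes. The SE, interval and p-value of each probe are the moderated ones, in which its variance is drawn toward that of all tested probes. The exact permutation tests of single probes were computed in R over all 6 assignments of the 4 arrays to groups. The platform annotation gave 1 symbol to 30112 probes, several to 8 and none to 17198, and RefSeq (GRCh38.p14) matched 30073 of the first. Some genes of the lists held no named probe.

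The genes named are every probe of the 7 caspases, the 3 tested genes of smallest unadjusted p in each pathway list, genes detected on 0 arrays, and the 2 genes nearest to each caspase. BIRC5 is named besides, for its other probe. The members and lists were chosen with earlier results of these data known. Alternatives were cyclic loess, median scaling, an offset of 50, no background correction, the authors' scaled signals, dropping the detection filter, detection at 0.01 on all 4 arrays, an intensity trend, the replicate number as a block, and leaving out each array.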

Additional observations from a re-analysis of the deposited data

How the results depend on the processing

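Under all 13 alternatives, 0 caspase probes and 0 pathway genes were called, and the lowest limma adjusted p of a caspase probe was 0.268. Over all tested probes the number called was 0, and from 0 to 3 with 1 array left out. The sign turned under median scaling for CASP2 ILMN_1736568 (-0.11) and ILMN_2410540 (-0.0060), where the median of all tested probes moved to -0.09, and relative to it they stood at -0.02 and 0.08. On the authors' scaled signals it turned for CASP2 ILMN_1736568 (-0.015), CASP6 ILMN_1694877 (0.0023) and CASP10 ILMN_1797578 (0.038). With 1 array left out, log2 fold changes ran from -0.34 to 0.10 and from -0.88 to 0.085 for CASP1, from -0.073 to 0.13 and from -8.5e-04 to 0.23 for CASP2, and from -0.55 to 0.28 for CASP4. They ran from -0.016 to 0.18 (ILMN_1659350) and from -0.22 to 0.056 (ILMN_1694877) for CASP6, and from -0.11 to 0.053 for CASP10. The sign was kept in every alternative that tested them by CASP6 ILMN_2367113 and by both CASP9 probes. The median over the tested caspase probes ran from -0.11 to 0.097 with 1 array left out. For each turned sign, the cause was not tested. The labels do not say whether same-numbered arrays share a batch. The correlation of same-numbered deviations was 0.147, a value that the 2 pairs share by construction, so it cannot decide this. With the replicate block the number of caspase probes called was 0 and of all probes 0. An unadjusted limma p under 0.05 was found for 7.12% of probes with the block, against 5.46% without it. Without a detection filter, 4 of 20 caspase probes had an unadjusted p under 0.05, against 5.42% of all probes. Signals near background limit CASP8, CASP10, CASP9 ILMN_1786046, CASP6 ILMN_1659350 and ILMN_1694877, and CASP1 ILMN_2326512 on mimic array 1.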

Other observations

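With no detection filter, 2 of the 9 caspase probes left untested had an unadjusted limma p under 0.05, against 5.42% of all probes. CASP4 ILMN_1774585, detected on 0 of 4 arrays, had deposited signals of 94.3 and 98.0 with the mimic and 93.6 and 93.2 with the NC oligo. CASP8 ILMN_1673757 had 97.7 and 97.2 with the mimic and 96.2 and 92.8 with the NC oligo. Their unadjusted limma p was 0.0231 and 0.0256, with an adjusted p of 0.916 each, and no fold is given because neither group was well above background on both arrays.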
